A study of Mus musculus with 2 samples.

Results

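The expression of actin and tubulin isoforms was examined in αMHC/miR-143/145TG hearts against non-transgenic (NTG) hearts. The genes followed were Acta1, Actc1, Actb and Actg1 among the actins and Tuba1a, Tuba1b, Tuba4a, Tubb2a, Tubb2b and Tubb5 among the tubulins, taken by the array's gene symbol, old or current. Of these 10 genes, 7 had a probe, and 9 of the 23473 probes of the array belonged to them. Actc1, Actg1 and Tuba1a had no probe that is named here, and their expression was not analysed. All 7 genes gave a ratio in both lines, as did 17482 genes and unnamed probes in all.

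Heart RNA of 3-month old mice was hybridized to 2 arrays read in both dyes (Toray 3D-Gene Mouse Oligo chip 24), 1 for the transgenic line L9 and 1 for the line L19. Both lines express a human fragment with pri-miR-143 plus pri-miR-145 from the promoter/enhancer of the alpha-myosin heavy chain gene, which is active in cardiomyocytes, and both were made from B6D2F1 eggs and then backcrossed to C57BL/6J. The NTG hearts are labelled wild type, and the legends of the study describe the NTG, L9 and L19 mice as male. On each array NTG RNA was read in Cy5 and transgenic (TG) RNA in Cy3, with 1 control and 1 transgenic mouse per array by the series' description and no dye swap. The NTG RNA carries the same label on both arrays and was counted as 1 control sample, so that L9 and L19 were 2 samples of the transgene set against it. The spread between NTG mice was therefore not measured, and a dye effect and the effect of the transgene cannot be told apart. In whole hearts, fewer cells of a type and less RNA per cell cannot be told apart either.

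Actins form the thin filaments of the sarcomere and the filaments of the cell cortex. Cardiac alpha-actin (Actc1) is the main sarcomeric isoform of the adult rodent ventricle, skeletal alpha-actin (Acta1) is a classical marker of the fetal gene program that returns in rodent hypertrophy, and beta-actin (Actb) and gamma-actin (Actg1) build the cytoskeleton of most cells. Alpha- and beta-tubulins pair into the heterodimers of microtubules, which become denser in many hypertrophied and failing hearts. Many actin genes carry a CArG box, the site bound by serum response factor (SRF), and the skeletal alpha-actin promoter is also known for an M-CAT element, the site of TEAD factors.

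RefSeq promoter windows (GRCm38.p6) were at hand for 8 of the 10 genes, 3 actins and 5 tubulins, and not for Actb and Tubb2b. Acta1 was the member in which L9 and L19 differed most. Tuba4a and Tubb2a had the lowest and the highest mean log2 ratio of the 5 measured tubulins, by the brightest probes and the correction by blank spots. The 250 bases before the start of transcription are shown for these 3 genes. They are written 5′ to 3′ on the minus strand, from chr8:123894776-123895025 for Acta1, chr1:75219295-75219544 for Tuba4a and chr13:34078009-34078258 for Tubb2a. Capitals mark a TATA box (TATAAA), an M-CAT element (CATTCC) or a CArG box.
Acta1: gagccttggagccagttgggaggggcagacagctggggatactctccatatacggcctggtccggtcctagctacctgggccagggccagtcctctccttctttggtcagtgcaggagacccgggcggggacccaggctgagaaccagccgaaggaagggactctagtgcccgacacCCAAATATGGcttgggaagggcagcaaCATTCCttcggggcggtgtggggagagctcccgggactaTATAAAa
Tuba4a: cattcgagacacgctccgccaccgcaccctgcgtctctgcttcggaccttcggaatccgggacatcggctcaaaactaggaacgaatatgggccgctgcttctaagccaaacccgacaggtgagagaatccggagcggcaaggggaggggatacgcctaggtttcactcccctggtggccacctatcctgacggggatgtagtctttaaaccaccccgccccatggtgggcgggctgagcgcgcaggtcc
Tubb2a: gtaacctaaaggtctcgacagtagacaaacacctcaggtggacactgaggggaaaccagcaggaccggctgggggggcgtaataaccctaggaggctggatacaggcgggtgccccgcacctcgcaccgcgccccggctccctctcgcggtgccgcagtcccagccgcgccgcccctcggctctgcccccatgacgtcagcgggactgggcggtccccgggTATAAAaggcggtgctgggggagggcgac
The Acta1 window held all 3 kinds of element, with the first base of the CArG box (CCAAATATGG) 73 bases, that of the M-CAT element 46 bases and that of the TATA box 7 bases before the start. Tubb2a had a TATA box 29 bases before the start and none of the other capitals, and Tuba4a had none of them. All 3 windows held a pair of GC boxes (GGGCGG), at 128 and 36 bases before the start in Acta1, at 35 and 23 bases in Tuba4a and at 81 and 43 bases in Tubb2a.

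A CArG box was present in each of the 3 actin windows and in 0 of the 5 tubulin windows. The CArG box of Actc1 (CCAAATAAGG) began 47 bases and that of Actg1 (CCATATATGG) 90 bases before the start. Over all 32851 windows of this length, searched on both strands, 1.47% held a CArG box, 12.6% an M-CAT element, 12.4% a TATA box and 32.7% a GC box. The M-CAT letters also occurred in Tubb5, 174 bases before the start. A match of letters is a description of the sequence and not a site shown to be bound. Positions were counted from the RefSeq start, and whether this is the start used in the heart was not examined.

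**Figure D1:**
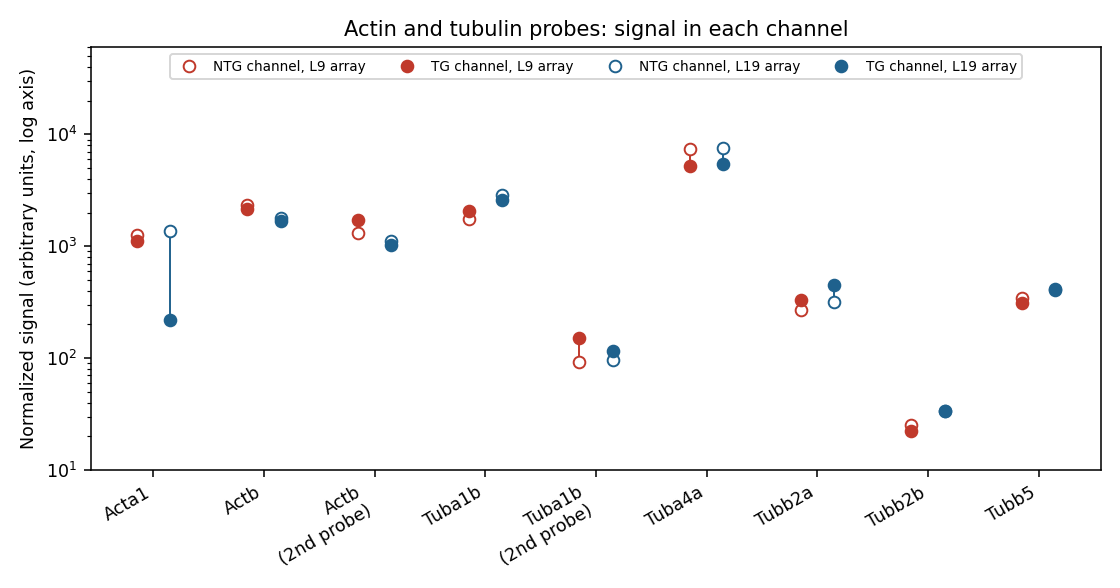
Normalized signal (arbitrary units, log axis) of each of the 9 actin and tubulin probes. Open circles are the NTG channel and filled circles the TG channel of the L9 array (red) and the L19 array (blue), and each point is 1 channel of 1 array. The TG point of Acta1 on the L19 array, at 219, lies far below its NTG point at 1364, the widest gap of any pair, ahead of the second Tuba1b probe on the L9 array, at 93.1 in NTG and 150 in TG.

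Acta1 was the member with the lowest ratio, and it was low in L19 but not to the same degree in L9. Its normalized signal, which is the spot signal less the level of the blank spots, with the TG channel scaled to a median ratio of 1, was 1273 in NTG and 1110 in TG on the L9 array. On the L19 array it was 1364 in NTG and 219 in TG. The NTG readings were thus alike on both arrays, and the L19 heart stood apart from the other 3 readings.

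As a share of NTG, the Acta1 signal was 87.3% in L9 and 16.0% in L19, which are log2 ratios of -0.20 and -2.64. The mean log2 ratio was -1.42 ± 1.73 (SD, n = 2 lines), with an adjusted p of 0.238 in limma. The lines differed by 2.44 on the log2 scale. Over all genes the SD of this difference was 0.42, and 8 of the 17482 genes differed more in size. Less the median difference between the arrays over all genes, the NTG signals of Acta1 differed by 0.014 on the log2 scale. The TG signals differed by 2.46 in the same measure, so that the difference lay in the TG channel.

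The L19 ratio of Acta1 was the 11th lowest of all 17482, while 31.9% of genes had a lower L9 ratio than Acta1. Acta1 has a single probe, read from 1 spot, which the scanner software did not mark as bad on either array. The uncorrected Cy3 reading was 2328 in L9 and 473 in L19, against Cy5 readings of 1292 and 1383. The L19 ratio stayed below NTG under the other background corrections that were tried, at -1.83 with normexp and -2.96 with no correction, whereas the L9 ratio was 0.15 with normexp and -0.76 with no correction.

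Acta1 is also the main sarcomeric actin of skeletal muscle. Of 6 skeletal muscle markers, 4 gave a ratio in both lines. Past 1.5-fold in both lines were 0 of these 4, beside 8.24% of all genes. The 4 had a median log2 ratio of 0.21 (-0.16 with normexp). Their summed signal was 3340 in NTG and 2662 in TG on the L9 array, and 3960 in NTG and 3252 in TG on the L19 array. Nearly all of this sum was Ckm, a creatine kinase that the heart also expresses, whose NTG signal was 3321 on the L9 array and 3934 with L19. The other 3 markers, Myh4, Tnnt3 and Mylpf, had signals of 4.29 to 16.5 and were above NTG in both lines. Myh1 was not above background in every channel and Myh2 had no probe that is named here.

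Of 7 cardiomyocyte markers, all measured, 2 were under 1/1.5 of NTG in both lines, beside 3.03% of all genes. These 7 markers had a median log2 ratio of -0.53, which turned to 0.12 with normexp. Their summed signal was 102682 in NTG and 64330 in TG on the L9 array, and 105027 in NTG and 79822 in TG on the L19 array. Myh6, the adult myosin heavy chain of the mouse ventricle, had log2 ratios of -0.99 in L9 and -0.63 in L19, and Ryr2, the calcium release channel, of -0.80 and -0.78. Most of this sum was Tnnt2, Tnni3 and Myh6, with NTG signals of 36232, 25164 and 19151 on the L9 array. Below NTG in both lines were 6 of the 7 markers, and Ttn had log2 ratios of -0.14 in L9 and 0.11 in L19. The part of cell composition in the Acta1 ratios was not tested.

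With the correction by blank spots, the cytoskeletal actin Actb lay close to NTG in both lines. Its brightest probe, which stood for the gene, gave a signal of 2324 in NTG and 2155 in TG on the L9 array, and of 1805 in NTG and 1689 in TG on the L19 array. These are 92.7% and 93.6% of NTG, or a mean log2 ratio of -0.10 ± 0.0098 (n = 2, limma adjusted p = 0.557). The readings fell together by array and not by genotype, and the mean log2 ratio was 0.68 with normexp (limma adjusted p = 0.0863) and -0.65 with no background correction (limma adjusted p = 9.07e-05).

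The second Actb probe disagreed with the first in L9. Its signal was 1304 in NTG and 1732 in TG on the L9 array and 1106 in NTG and 1035 in TG on the L19 array. That is 133% of NTG in L9 and 93.6% in L19, with log2 ratios of 0.41 and -0.10, and TG was above both NTG readings in L9 and below them in L19. The direction of Actb in L9 thus depended on the probe, while both probes gave the same ratio in L19.

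Acta1 and Actb were the sarcomeric and cytoskeletal isoforms that could be set against each other. The log2 ratio of Acta1 minus that of Actb was -0.087 in L9 and -2.55 in L19, a mean of -1.32 ± 1.74 (n = 2). With the second Actb probe it was -0.61 in L9 and -2.55 in L19. An exact permutation of the signs over 2 arrays gave a two-sided p of 0.5, the smallest that this design allows. Acta1 was thus far below Actb in its ratio in L19 with either probe, while its distance from Actb in L9 depended on the probe.

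**Figure D2:**
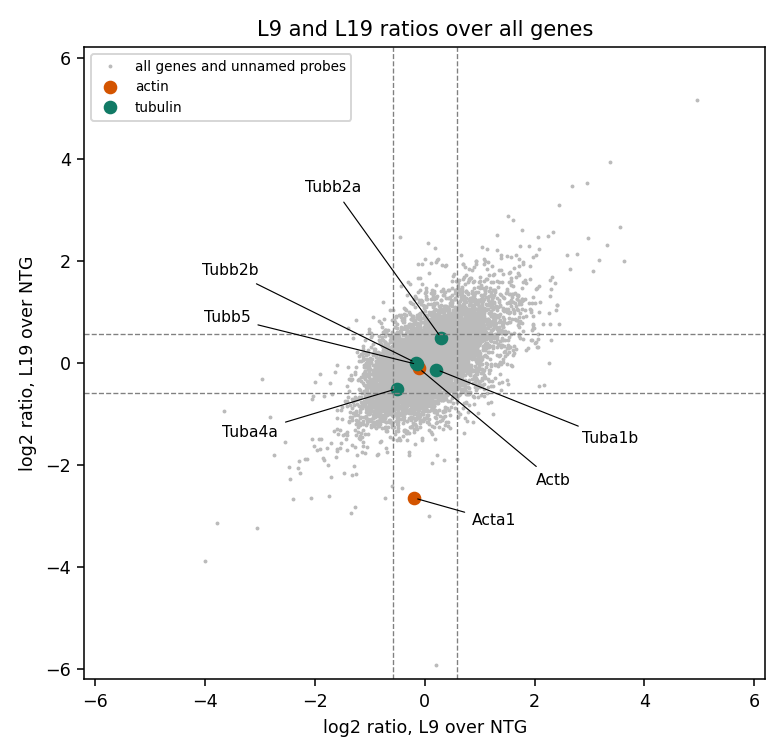
Log2 ratio of TG over NTG in L9 (horizontal) and in L19 (vertical). Grey points are all 17482 genes or probes measured in both lines, coloured points the 2 actins and 5 tubulins measured, and dashed lines mark 1.5-fold. Acta1 lies near 0 for L9 and at -2.64 for L19, while the other members lie within the dashed lines in both.

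Among the tubulins, Tuba4a was the lowest against NTG and had nearly the same ratio in both lines. Tuba4a is an alpha-tubulin that is encoded without the terminal tyrosine which other alpha-tubulins lose and regain in the detyrosination cycle of microtubules. Its signal was 7407 in NTG and 5221 in TG on the L9 array, and 7605 in NTG and 5389 in TG on the L19 array. Both TG readings lay below both NTG readings.

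Tuba4a was at 70.5% of NTG in L9 and 70.9% in L19. The mean log2 ratio was -0.50 ± 0.0054 (n = 2), which did not pass limma's test (adjusted p = 0.106) and did not reach the 1.5-fold cutoff. With robust estimation and a variance trend limma gave an adjusted p of 0.00502, and within the upper 50% of signal 0.0214. Loess within each array gave -0.38 (limma adjusted p = 0.152).

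The direction of Tuba4a turned with normexp correction by the files' local background, which gave 0.98 (limma adjusted p = 0.00539). The local background at this spot came to 78.7% of the Cy5 and 67.6% of the Cy3 signal in L9, and to 84.2% and 66.4% in L19. Over all gene probes, local background and spot signal had a correlation of 0.942 to 0.975 on the log2 scale across spots of 1 channel, given as a description.

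Tubb2a, a class II beta-tubulin, was the tubulin furthest above NTG in the gene-wise values. Its signal was 269 in NTG and 332 in TG on the L9 array and 317 in NTG and 448 in TG on the L19 array. Both TG readings were above both NTG readings, a separation whose share over all genes was not counted. It was at 123% of NTG in L9 and 141% in L19, with a mean log2 ratio of 0.40 ± 0.14 (n = 2, limma adjusted p = 0.143).

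Tubb2a passed limma's test with a trend and robust estimation (adjusted p = 0.0255), within the upper 50% of signal (0.0399) and with normexp (0.58, adjusted p = 0.0199). Without any background correction its mean log2 ratio was -0.11. The log2 ratio of Tubb2a was above that of Tuba4a by 0.81 in L9 and 0.996 in L19, a mean of 0.90 ± 0.13 (n = 2), again with an exact two-sided p of 0.5 as the smallest possible.

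Tubb2b, the close relative of Tubb2a that is best known from the developing brain, gave a low signal. It was 25.2 in NTG and 22.4 in TG on the L9 array, and 33.7 in NTG and 34.0 in TG on the L19 array, or 89.0% and 101% of NTG. The TG readings lay on opposite sides of NTG and differed more between the arrays than between the genotypes. The mean log2 ratio was -0.077 ± 0.13 (n = 2, limma adjusted p = 0.682).

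Tubb5, the class I beta-tubulin of most cell types, had a signal of 342 in NTG and 312 in TG on the L9 array and of 413 in NTG and 407 in TG on the L19 array. It stood at 91.2% and 98.5% of NTG, with a mean log2 ratio of -0.078 ± 0.079 (n = 2, limma adjusted p = 0.664). The genotypes overlapped over the 2 arrays. It was called higher with normexp (0.42, limma adjusted p = 0.0321) and lower with no background correction (-0.56, limma adjusted p = 0.000226).

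Tuba1b, a widely expressed alpha-tubulin, had a pair of probes that the platform names by the older symbol Tuba2. The brightest gave 1766 in NTG and 2048 in TG on the L9 array and 2847 in NTG and 2616 in TG on the L19 array, or 116% and 91.9% of NTG. Less the median difference over all genes, the NTG readings differed by -0.58 on the log2 scale between L9 and L19. The SD of this difference over all genes was 0.27, and the genotypes overlapped. The mean log2 ratio was 0.046 ± 0.24 (n = 2, limma adjusted p = 0.843). It was called higher with normexp (0.77, limma adjusted p = 0.0084) and lower with no background correction (-0.51, limma adjusted p = 0.000789).

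The dimmer Tuba1b probe gave a signal of 93.1 in NTG and 150 in TG on the L9 array and of 96.6 in NTG and 116 in TG on the L19 array. It was at 161% and 120% of NTG. Both TG readings lay above both NTG readings, and again the share of all genes that did so was not counted. Its mean log2 ratio was 0.48 ± 0.30 (n = 2, limma adjusted p = 0.157). Alpha-tubulin genes are close in sequence, and the probe sequences were not used here, so cross-hybridization between them could not be examined.

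The ratios of the other tubulins were each above that of Tuba4a in both lines. The log2 ratio of Tuba1b was above it by 0.72 in L9 and 0.37 in L19, Tubb2b by 0.34 and 0.51, and Tubb5 by 0.37 and 0.47. These differences share the Tuba4a reading and are not independent of each other, and with normexp they turned, since the mean ratio of Tuba4a was then the highest of the 5 tubulins.

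Taken over the 7 genes, 0 were past 1.5-fold in the same direction in both lines, where 8.24% of all genes were. In L19 alone 1 member, Acta1, was past 1.5-fold, on the lower side. Of all genes 17.4% were past it in L19, 7.6% lower and 9.78% higher. In L9 alone 0 members were past it by their brightest probe, against 18.1% of all genes, 7.47% lower and 10.6% higher. The dimmer Tuba1b probe was past it in L9, at a log2 ratio of 0.69. limma called 0 members and 0 of all genes (0% in each direction). At an unadjusted p under 0.05 it had 15.7% of all genes higher and 14.4% lower, and among the members Tubb2a higher and Tuba4a lower. With a trend and robust estimation, 10.5% of all genes were called higher and 9.58% lower, and of the members again Tubb2a and Tuba4a.

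The median of the members' mean log2 ratios was -0.078, beside -0.013 over all genes. It moved to 0.58 with normexp and to -0.56 with no background correction, beside 0.0063 and -0.031 over all genes. On the same side of NTG in both lines were 5 of the 7 members, 4 of them below it and 1 above, and 73.9% of all genes were on the same side in both lines. Since the NTG RNA carries the same label on both arrays, this share may not be that of independent comparisons.

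**Figure D3:**
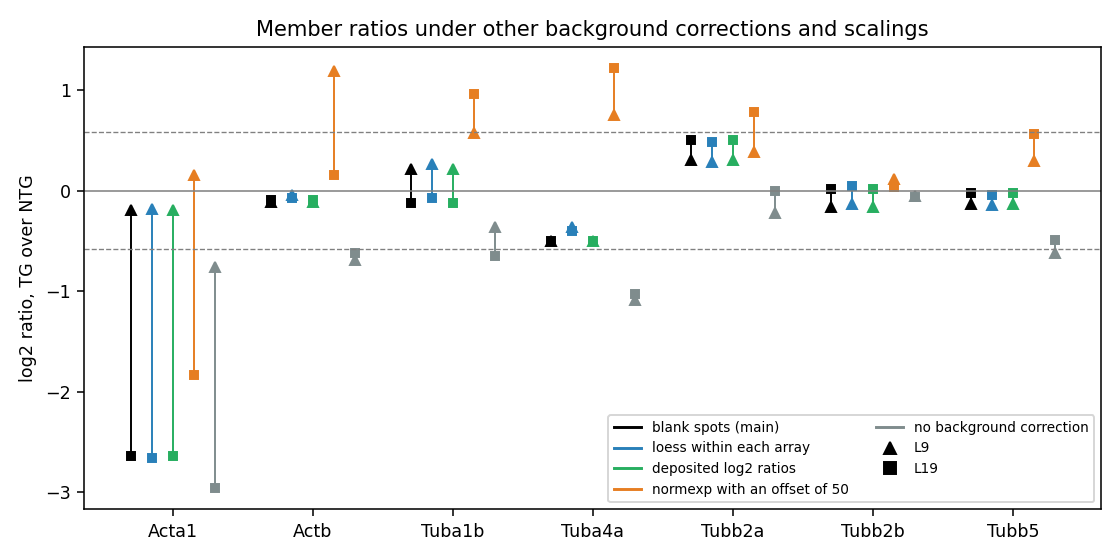
Log2 ratio of TG over NTG (vertical) of each member in L9 (triangles) and L19 (squares), joined by a line, under the correction by blank spots (black) and 4 other corrections or scalings (colours). Dashed lines mark 1.5-fold. Acta1 in L19 stays low in every setting, while Tuba4a moves from -0.50 to 0.98 on average with normexp and to -1.06 with no background correction.

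Genes that act on actin filaments and microtubules were taken from 7 lists, in which 133 of 168 genes gave a ratio in both lines. Of these, 7 were over 1.5-fold in both lines and 4 were under it, beside 5.21% and 3.03% of all genes. All 11 kept their side of NTG on average with normexp, with loess and with no background correction, but the size of several changed. With normexp the mean log2 ratio of each of the 4 lower genes was closer to 0, at -0.17 for Hopx, -0.14 for Tead1, -0.20 for Map1lc3a and -0.48 for Tmod4. With no background correction that of Gsn was 0.16, from 0.72.

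Among 13 other actins and actin-related proteins, 1 was past 1.5-fold. This was Actr2, the Arp2 subunit of the Arp2/3 complex that nucleates branched actin. Its signal was 434 in NTG and 881 in TG on the L9 array and 447 against 850 on the L19 array, a mean log2 ratio of 0.97 ± 0.066 (n = 2, limma adjusted p = 0.0856). Its partner Actr3, chosen after its values were seen, had log2 ratios of -0.12 and -0.23, with a mean of -0.17 that turned to 0.31 with normexp. The mean log2 ratio of the other subunits of this complex in the lists, all above NTG in both lines, was 0.46 for Arpc2, 0.49 for Arpc1b, 0.52 for Arpc1a and 0.21 for Arpc5, likewise chosen. Acta2, the smooth muscle actin, chosen in the same way, had log2 ratios of 0.68 in L9 and 0.31 in L19.

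Of 10 other tubulins 0 were past 1.5-fold in both lines, with a median log2 ratio of -0.20. Among 17 genes of tubulin and actin folding, Tbce, a cofactor in the assembly of the tubulin dimer, was the 1 past 1.5-fold, with log2 ratios of 0.97 in L9 and 0.71 in L19. Of 14 enzymes and cofactors of tubulin modification, 0 were past it. Among 24 microtubule-associated proteins it was Map1lc3a, which was first found as a light chain of such a protein and is best known from autophagy, at -1.14 and -0.87. The medians of these lists lay between -0.20 and 0.034. Beside their counts, 8.24% of all genes were past the cutoff in the same direction in both lines. The folding list moved most with the correction, to 0.50 with normexp and -0.44 with none.

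The list of actin filament regulators held 43 measured genes, of which 4 were over 1.5-fold in both lines and 1 was under it. Dstn (destrin), which severs and depolymerizes actin filaments, was at 1.58 in L9 and 1.25 in L19, a mean log2 ratio of 1.41 ± 0.23 (n = 2, limma adjusted p = 0.0856). Cap2, which binds actin monomers and is found in striated muscle, had log2 ratios of 1.01 and 1.08. Cobl, an actin nucleator, was at 1.82 and 1.64, from NTG signals of 13.1 and 15.3. Gsn (gelsolin), a severing and capping protein that was named after its values were seen, was at 0.69 and 0.75.

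Tmod4, a tropomodulin that caps the pointed ends of the thin filaments in striated muscle, was the regulator under 1/1.5 of NTG. Its signal was 217 in NTG and 90.5 in TG on the L9 array and 268 against 140 on the L19 array, with log2 ratios of -1.26 and -0.94. Unlike Acta1, it was low in both lines. The median over the 43 regulators was 0.19, or -0.11 with no background correction.

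SRF and its cofactors were listed because the actin promoters carry CArG boxes. Of 12 measured genes, 1 was over 1.5-fold and 2 were under it in both lines. Abra, which binds actin and activates SRF through its cofactors, had log2 ratios of 0.72 in L9 and 1.21 in L19. Hopx, a homeodomain protein that restrains SRF, was at -1.42 and -0.75, and Tead1, a TEAD factor of the M-CAT element, at -0.75 and -0.66. With normexp the mean of Hopx moved from -1.09 to -0.17 and that of Tead1 from -0.71 to -0.14.

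**Figure D4:**
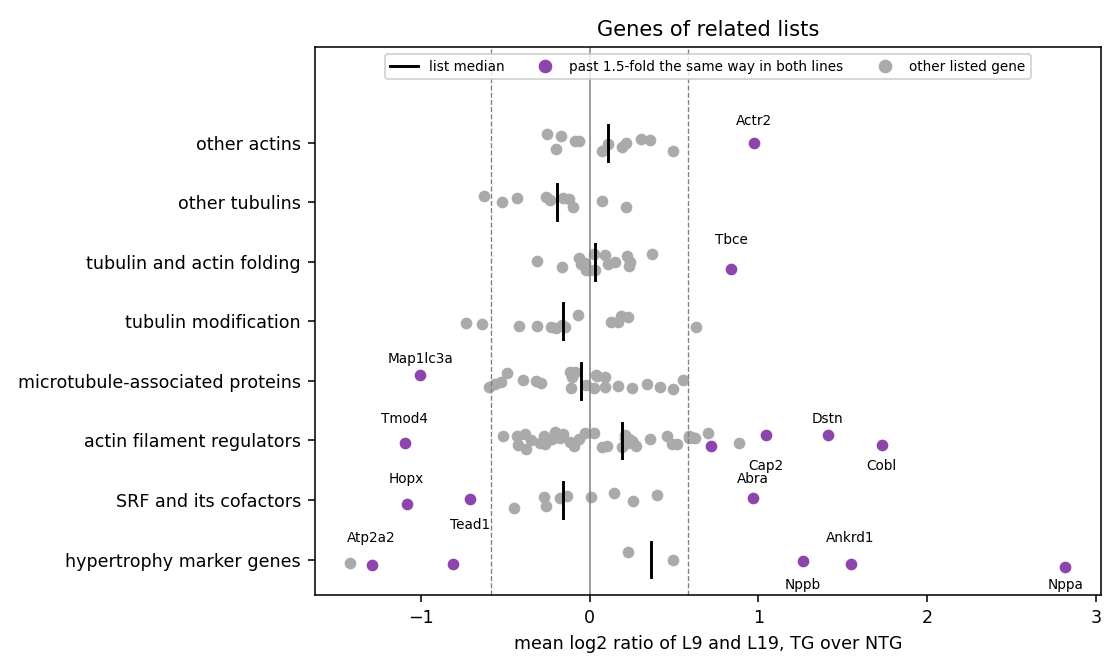
Mean log2 ratio of L9 and L19 (horizontal) of each measured gene of the related lists (rows), with the list median as a black bar, purple points for genes past 1.5-fold the same way in both lines and dashed lines at 1.5-fold. Vertical scatter within a row has no meaning. The named genes of the tubulin lists are Tbce and Map1lc3a, and those of the actin filament regulators are Dstn, Cap2, Cobl and Tmod4.

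Acta1 was also among 8 measured genes that serve as markers of cardiac hypertrophy. Of these 8, 3 were over 1.5-fold and 2 under it in both lines, beside 5.21% and 3.03% of all genes. Nppa, the atrial natriuretic peptide, gave 668 in NTG and 6695 in TG on the L9 array and 728 against 3617 on the L19 array, or log2 ratios of 3.32 and 2.31. Nppb, the B-type peptide, had a mean log2 ratio of 1.27 ± 0.34 (n = 2), and Ankrd1, a stress-responsive protein of the sarcomere and nucleus, ratios of 2.08 and 1.02. These 3 genes were above NTG in both lines, also on average under each correction tried, whereas Acta1 was far below it in L19. The 2 genes under 1/1.5 of NTG in both lines were Atp2a2 and Myh6.

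Myh7, the fetal myosin heavy chain, which was named after its values were seen, had log2 ratios of 0.020 in L9 and 0.43 in L19. Atp2a2, the calcium pump of the sarcoplasmic reticulum, was at -1.28 and -1.31.

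Actb and Tubb5 are also expressed in the non-muscle cells of the heart, so markers of non-muscle cells are given beside them. All 9 fibroblast markers were measured, with a median log2 ratio of 0.65. The median moved to 1.03 with normexp and to 0.13 with no background correction. Above NTG in both lines were 8 of the 9, and Col3a1 had log2 ratios of 1.02 in L9 and -0.018 in L19. Over 1.5-fold in both lines were 3 of 9, Lum, Pcolce and Postn, beside 5.21% of all genes. Postn (periostin), a matrix protein of activated fibroblasts, was at 3.06 in L9 and 1.80 in L19. The summed fibroblast signal was 3077 in NTG and 6003 in TG on the L9 array and 3839 against 5379 on the L19 array.

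All 6 endothelial markers were measured too, with a median log2 ratio of -0.55. Below NTG in both lines were 4 of the 6. The lines lay on opposite sides of NTG for Pecam1 (-0.088 in L9 and 0.38 in L19) and Emcn (0.12 and -0.36). Under 1/1.5 of NTG in both lines were 2 of 6, Cdh5 and Vwf, beside 3.03% of all genes. Both were dim, with TG signals of 6.28 in L9 and 10.3 in L19 for Cdh5 and of 5.29 and 7.84 for Vwf. With no background correction their mean log2 ratios were 0.0046 and 0.0039. The median moved to -0.036 with normexp and to -0.13 with no background correction. The summed signal of the 6 markers was 653 in NTG and 513 in TG on the L9 array and 789 against 591 on the L19 array. Of the smooth muscle markers 0 of 7 and of the measured macrophage markers 0 of 5 were past 1.5-fold in both lines. The share of all genes was 8.24%. The part of these cell types in the ratios of the cytoskeletal isoforms was not tested.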

How the data were processed

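RNA of 3-month old L9 and L19 hearts (TG, Cy3) and NTG hearts (Cy5) was read on 2 arrays. The authors deposited scanner files with the intensity of each spot, neither background-corrected nor normalized (3D-Gene Extraction software, no version stated in the labels or methods). The deposited log2 ratios of the authors were recomputed from the intensities as Cy3 over Cy5. Of 18441 deposited ratios in L9, 18439 were matched within 0.001, and of 18824 in L19, 18820 were. The trimmed mean (5% at each end) of the 2736 blank spots was subtracted from each channel (19.1 for Cy5 on both arrays, 85.2 and 72.6 for Cy3), probes above that mean plus 2 SD in both channels were kept (18440 in L9, 18821 in L19), and the ratio was scaled to a median of 1, from 2.02 in L9 and 1.83 in L19.

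Platform symbols were updated through the RefSeq gene table (12622 current, 3947 updated, 62 kept, 6842 probes unnamed). The brightest probe stood for a gene. All genes entered a limma fit (version 3.58.1, R 4.3.3) of the ratios against 0, with Benjamini-Hochberg adjustment, a threshold of 0.05 and L9 and L19 as 2 samples, and 1.5-fold was used as a description. The step was tested on simulated data. The number of arrays limits the precision, and p-values measure only the spread between these 2 hearts. Other tools were Python 3.11.15, numpy 2.4.6 and pandas 2.3.3.

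Named were all members and up to 4 genes of each list with the largest mean ratio among those past 1.5-fold in both lines. Members and lists were chosen with earlier results of these data known. Alternatives were normexp (offset of 50, local background), loess, the deposited log2 ratios, limma with trend and robust estimation, the upper 50% of signal, each line left out, each probe apart, a 2-fold cutoff and, added after values were seen, no background correction.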

Additional observations from a re-analysis of the deposited data

Results flagged for a closer look

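In 3 probes the L9 and L19 hearts lay on opposite sides of NTG. For the second Actb probe the log2 ratio was 0.41 in L9 and -0.10 in L19, a difference of 0.51. For the brightest Tuba1b probe it was 0.21 and -0.12, a difference of 0.34. For Tubb2b it was -0.17 and 0.013, a difference of -0.18. With 1 array per line these differences were not tested, and the SD of the difference between the lines over all genes was 0.42.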

How the results depend on the processing

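No paired analysis was possible because each ratio already sets TG against NTG on 1 array and the 2 ratios form 1 group. Acta1 minus Actb kept its sign in every setting run, as did the mean log2 ratio of Acta1. Mean log2 ratios that turned were those of Actb (0.16 with its other probe, 0.68 with normexp), Tuba1b (-0.51 with no background correction, -0.12 without L9), Tuba4a (0.98 with normexp), Tubb2a (-0.11 with no background correction), Tubb2b (0.079 with normexp, 0.013 without L9) and Tubb5 (0.42 with normexp). Without L19, Tuba1b (0.21) and Tubb2b (-0.17) kept their sign.

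limma called 2 members with trend and robust estimation, 5 with no background correction, 4 with normexp and 2 within the upper 50% of signal, against 0. In the same order it called 1832, 5212, 2921 and 1249 genes higher and 1674, 6448, 439 and 1286 lower. The last of these settings tested only the brighter 50% of genes, without Tubb2b, so its counts are not over all genes. Past 1.5-fold were 3 members with no background correction (Acta1, Actb and Tuba4a, lower), where 82 of 17482 genes were higher and 1364 lower. With normexp it was 1 member (Tuba4a, higher), where 857 of all genes were higher and 21 lower. With 1 line left out it was 0 to 1 member, where 1709 to 1856 of all genes were higher and 1306 to 1328 lower.

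Over 1.5-fold in both lines were 910 genes, against 219 at 2-fold, 82 with no background correction, 352 within the upper 50% of signal and 1709 to 1856 with 1 line left out. Under it were 530, against 99, 1364, 256 and 1306 to 1328, and 21 with normexp. In the related lists 7 were over, against 3 at 2-fold, 2 with no background correction, 21 with normexp and 12 to 15 with 1 line left out. There 4 were under, against 0, 17, 0 and 10 to 10.

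No background correction, chosen after values were seen, leaves the higher blank level of Cy3 in the ratios, which moves dim against bright probes. The upper 50% tests fewer genes. The cause of the other shifts was not tested. With 1 line left there is no test.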
